A study of Mus musculus with 8 samples.

Results

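The genes described here are 10 markers of mural cells, the smooth muscle cells and pericytes that wrap blood vessels, measured by RNA sequencing of the mouse left ventricle. They are a list of gene symbols, with no threshold on a measured value, though drawn up with earlier results of these data known: Acta2, Myh11, Tagln, Cnn1 and Smtn for smooth muscle, and Rgs5, Pdgfrb, Notch3, Abcc9 and Cspg4 for pericytes. All 10 were found among the 38293 gene identifiers of the count table, and all 10 were among the 13336 genes with enough counts to be tested. Poly(A) RNA came from 8 male mice on a C57BL/6 background, 8 weeks old and untreated, with 1 library per heart. Wild-type (WT) mice gave replicates 1 to 4, and mice with a knockout (KO) of mORF4/NBDY, called Nbdy here, gave replicates 5 to 8. Nbdy encodes a microprotein of the mRNA decapping machinery. How the KO allele was made, and whether the WT mice were littermates, is not stated in the labels.

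Smooth muscle cells line arteries and arterioles and set vessel calibre by contracting, and pericytes sit on capillaries, which they share a basement membrane with. Contractile genes of smooth muscle are switched on by serum response factor (SRF), which binds the CArG box, a short element rich in A and T, and recruits the coactivator myocardin. Endothelial cells recruit pericytes with PDGF-B, which binds the receptor encoded by Pdgfrb, and signal to mural cells through Notch ligands and the receptor Notch3. Several of these markers are shared with other cells of the heart: Pdgfrb also marks fibroblasts, and splice forms of Abcc9 serve heart muscle as well as vessels. In bulk tissue, fewer mural cells and less RNA per cell cannot be told apart.

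Total counts ran from 11101901 to 14699949 per library. Nbdy, which lies on chromosome X, was lower in every KO heart (9.58 to 10.4 CPM) than in every WT heart (19.0 to 20.1 CPM), at 0.511 of its WT level (log2 fold change -0.97 ± 0.11 SE, adjusted p = 0.0060 in edgeR). The direction is that of the labels, but the mice are labelled male and Nbdy reads remained in all KO hearts, so gene counts alone do not check the allele. Of the 13336 genes tested, 3 passed an adjusted p of 0.05. Levels are given as CPM, a share of all counted reads, on library sizes scaled by TMM, and levels of different genes are compared as CPM per kilobase of exon. The sum of 10 ventricular cardiomyocyte markers was 69602 to 84758 CPM, and the 10 mural genes together reached 1317 to 1936 CPM. RNA of both marker sets was thus read in every heart, although several of the mural markers are shared with other cells.

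No member passed the test between genotypes. Of the 10 members, 0 had an adjusted p under 0.05 in edgeR's quasi-likelihood test, against 0.0225% of all genes tested (0.015% higher and 0.0075% lower in KO), and 0 had an unadjusted p under 0.05, against 6.40% of all genes. DESeq2 and limma-voom also called 0 members. The CPM ranges of WT and KO overlapped for all 10 members, while 4.12% of all genes tested had ranges that did not overlap, 2.14% with KO above. Of the members, 3 had a positive and 7 a negative log2 fold change, with a median of -0.08, beside a median of -0.0032 over all genes tested. The p-values measure the spread between hearts of this series, and nothing in the labels says how the mice were bred or when they were processed.

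**Figure D1:**
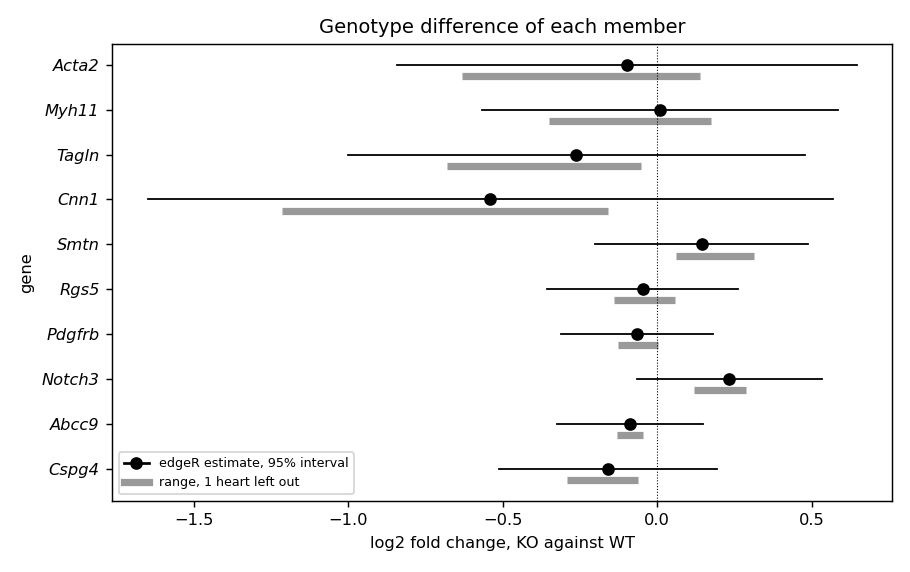
Log2 fold change of each member in KO against WT (x axis; black points, with the 95% interval of the edgeR fit as a line), and below each point, in grey, the range of the estimate when 1 of the 8 hearts was left out. Every interval crosses 0; it is widest for Cnn1 (-1.65 to 0.57) and narrow for Abcc9 (-0.32 to 0.15).

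Per kilobase of exon, the pericyte gene Rgs5 and the smooth muscle actin gene Acta2 were the most abundant members, at 118 ± 16.1 and 113 ± 49.9 CPM per kilobase (SD over 8 hearts). Smtn followed at 78.4 ± 13.8, Tagln at 30.5 ± 13.8, Abcc9 at 25.9 ± 2.03 and Pdgfrb at 17.6 ± 1.61 CPM per kilobase. Myh11 stood at 10.1 ± 3.43, Notch3 at 6.95 ± 1.09, Cspg4 at 2.11 ± 0.386 and Cnn1 at 1.47 ± 0.948 CPM per kilobase. Not all neighbours in this order could be separated by their range over hearts. Smtn was above Tagln, Abcc9 above Pdgfrb and Notch3 above Cspg4 with no overlap, whereas the other 6 neighbouring pairs overlapped. Compared heart by heart, Pdgfrb was above Myh11 in all 8 hearts although their ranges overlapped. Rgs5 was above Acta2 in 5 of 8 hearts, and Tagln was above Abcc9 in 3. Acta2 was above Smtn, Myh11 above Notch3 and Cspg4 above Cnn1 in 6 hearts each.

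**Figure D2:**
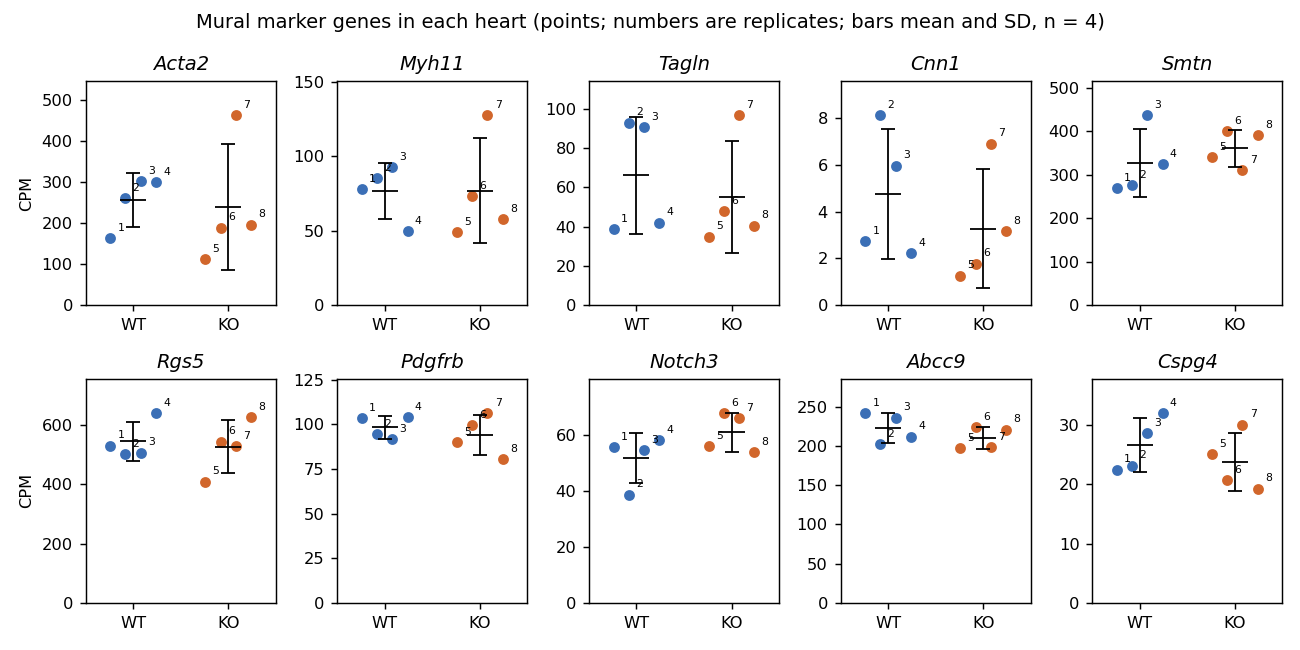
CPM of each member (y axis, 1 panel per gene, each with its own scale from 0) in the 4 WT and 4 KO hearts (x axis); each point is a heart and carries its replicate number, and the bars give the mean and SD of a genotype. KO replicate 7 holds the highest Acta2 (463 CPM), Myh11 (127 CPM) and Tagln (96.6 CPM), and the groups overlap for all 10 genes.

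The smooth muscle genes were examined first. Acta2, which encodes the alpha actin of the smooth muscle thin filament, is on the minus strand of chromosome 19 (34241090 to 34255590, GRCm38). It stood at 163, 260.3, 303 and 301 CPM in WT replicates 1 to 4 and at 112, 189, 463 and 196 CPM in KO replicates 5 to 8. Both the highest and the lowest heart were KO hearts, 4.13-fold apart, and the WT values lay between them. On average it reached 257 ± 65.6 CPM in the WT hearts and 240.1 ± 153 CPM in the KO hearts (SD over 4 hearts), a log2 difference (KO against WT, as throughout) of -0.10 ± 0.34 (SE; adjusted p = 0.973 in edgeR). Leaving out KO replicate 7 gave -0.63 and leaving out KO replicate 5 gave 0.14, so the sign rests on single hearts. The sign also turned (0.05) with 1 surrogate variable, an unlabelled factor estimated from the counts, in the fit. That factor was 0.778 in WT replicate 2 and from -0.416 to 0.231 in the other hearts. Fits with it are therefore not independent of those without WT replicate 2. Reads in the coding exons of Acta2 resemble those of the cardiac and skeletal actin genes, and how the authors' counting treated such reads is not given in the sources used here. Actc1, the cardiac alpha actin, ran from 6720 CPM in KO replicate 5 to 11673 CPM in WT replicate 4, with 8988 CPM in KO replicate 7. Acta1, the skeletal alpha actin, ran from 386 CPM in KO replicate 5 to 1035 CPM in WT replicate 1, with 989 CPM in KO replicate 7. Both were thus lowest in the heart with the least Acta2, and their part in the Acta2 values was not tested.

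Promoter sequence is shown for members of both classes, because the contractile genes are the textbook targets of SRF. Of the 10 members, 7 matched an entry in the RefSeq promoter table (GRCm38.p6), all but Myh11, Tagln and Pdgfrb, and the 250 bases before each start were searched on both strands. Of these 7, only Acta2, Cnn1 and Smtn are smooth muscle members, and bases outside the windows were not searched. The exact CArG box (CC, then 6 bases that are each A or T, then GG; the same on both strands) was present in 0 of the 7 windows, against 1.47% of all 32851 promoter windows. With 1 of its 10 bases allowed to differ, a definition added after the exact search, it was present in Acta2 and Cspg4, against 18.6% of all windows. Acta2 held 2 separate near-matches. Of all windows 2.96% held 2 or more, but that share also counts matches that overlap, as both do in Cspg4, so it is not the share for separate matches. The core of the site bound by the Notch effector RBPJ, TGGGAA, was present in Abcc9, Acta2 and Smtn, against 21.6% of all windows, and in Acta2 it shares 3 bases with the second near-match. The 30 bases printed around each Acta2 near-match are at chr19:34255438-34255467 and chr19:34255388-34255417, minus strand. The near-matches themselves (capitals) start 84 and 34 bases before the RefSeq start, within an exon that GENCODE M21 begins further upstream. For comparison, the bases upstream of the annotated exons are given for Cnn1 (chr9:22099003-22099215, plus strand), a second contractile gene, and for Rgs5 (chr1:169655251-169655500, plus strand), the most abundant pericyte gene; neither holds a near-match, hence no capitals.
Acta2 site 1: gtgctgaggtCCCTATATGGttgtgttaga
Acta2 site 2: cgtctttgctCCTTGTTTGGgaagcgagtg
Cnn1: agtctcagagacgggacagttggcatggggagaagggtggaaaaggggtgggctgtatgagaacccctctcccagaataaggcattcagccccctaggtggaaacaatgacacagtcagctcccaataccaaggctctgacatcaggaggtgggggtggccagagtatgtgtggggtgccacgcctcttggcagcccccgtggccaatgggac
Rgs5: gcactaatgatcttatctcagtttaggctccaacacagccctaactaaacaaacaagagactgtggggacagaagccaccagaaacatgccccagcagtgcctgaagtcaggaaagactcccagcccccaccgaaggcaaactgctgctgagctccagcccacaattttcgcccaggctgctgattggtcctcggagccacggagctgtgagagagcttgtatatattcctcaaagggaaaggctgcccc

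Myh11 encodes the smooth muscle myosin heavy chain, the motor of the contractile apparatus, and lies on chromosome 16 (14194535 to 14291372, minus strand). It stood at 78.0, 85.2, 92.6 and 49.9 CPM in WT replicates 1 to 4 and at 49.0, 73.1, 127 and 57.8 CPM in KO replicates 5 to 8. KO replicate 7 was again the highest and KO replicate 5 the lowest, 2.60-fold apart. WT hearts averaged 76.4 ± 18.6 CPM and KO hearts 76.8 ± 35.2 CPM (SD, 4 hearts per genotype); the log2 fold change was 0.01 with an SE of 0.27 (adjusted p = 0.994, edgeR). Its 95% interval ran from -0.57 to 0.58. Without KO replicate 7 the value was -0.35, and the sign also turned with library totals (-0.042) and limma-voom (-0.055).

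Tagln, on chromosome 9 (45929619 to 45936058, minus strand), encodes transgelin or SM22-alpha, an actin-binding protein of smooth muscle. It stood at 38.7, 92.9, 90.6 and 42.0 CPM in WT replicates 1 to 4 and at 34.9, 48.0, 96.6 and 40.5 CPM in KO replicates 5 to 8. The 8 hearts fell apart into 3 at 90.6 to 96.6 CPM and 5 at 34.9 to 48.0 CPM, and both genotypes had hearts in each range. On average it reached 66.1 ± 29.7 CPM in the WT hearts and 55.0 ± 28.3 CPM in the KO hearts (SD over 4 hearts), a log2 difference of -0.26 ± 0.34 (SE; adjusted p = 0.910 in edgeR). The value was -0.68 without KO replicate 7, -0.05 without WT replicate 2 and 0.10 with 1 surrogate variable. Annotated genes on the other strand share 1241 bases (Gm48529) and 108 bases (Pcsk7) of its exons, so its counts would include their reads if strand had been ignored. The same limit holds for Smtn (714 bases with Gm11946 and 39 with Gm11947), Notch3 (488 with Gm17276) and Abcc9 (158 with 5330439B14Rik).

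Cnn1, on chromosome 9 (22099216 to 22109630, plus strand), encodes calponin 1, which binds actin and restrains the myosin motor. It was the least abundant member, with raw counts of 34, 88, 73 and 29 in the WT hearts (replicates 1 to 4) and of 18, 25, 88 and 36 in the KO hearts (replicates 5 to 8). These equal 2.73, 8.11, 5.96 and 2.23 CPM for WT, and 1.26, 1.77, 6.90 and 3.15 CPM for KO. WT replicates 2 and 3 and KO replicate 7 were high, the same 3 hearts as for Tagln. Cnn1 had the largest estimate among the members, -0.54 ± 0.51 (SE, adjusted p = 0.872 in edgeR), with an interval from -1.65 to 0.57. Without KO replicate 7 it was -1.21, without WT replicate 2 it was -0.16, and with 1 surrogate variable it turned to 0.07. Under both of the last settings Cspg4 had a larger estimate, at -0.22 and -0.23.

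Smtn encodes smoothelin, a cytoskeletal protein of contractile smooth muscle, on chromosome 11 (3517523 to 3540612, minus strand). It stood at 269, 276, 437 and 324 CPM in WT replicates 1 to 4 and at 341, 400.3, 311 and 390.3 CPM in KO replicates 5 to 8. Its order of hearts differed from that of the other smooth muscle genes: KO replicate 7 was below the other KO hearts, and WT replicate 2 was among the lowest. WT hearts averaged 326 ± 77.6 CPM and KO hearts 361 ± 41.9 CPM (SD, 4 hearts per genotype); the log2 fold change was 0.14 with an SE of 0.16 (adjusted p = 0.889, edgeR). Without WT replicate 3 the value was 0.31. Per kilobase, Smtn was above Myh11 in level in every heart, at 61.4 to 99.7 against 6.45 to 16.8 CPM per kilobase.

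Acta2, Myh11, Tagln and Cnn1 varied widely between hearts of the same genotype. The SD of log2 CPM within a genotype was 0.67 for Acta2, 0.51 for Myh11, 0.67 for Tagln and 0.94 for Cnn1, beside a median of 0.23 over all genes tested. These values stand at the 95.8th, 89.4th, 95.8th and 98.9th percentile of all genes tested, whatever their level, and Cnn1 rests on 18 to 88 counts. Smtn (0.26, 58.4th percentile) and the pericyte genes (0.11 to 0.27) lay nearer the middle or below it. The SD of CPM as a share of the mean was larger in KO than in WT for Acta2 (63.9% and 25.6%) and Myh11 (45.8% and 24.4%). The same share was 51.3% in KO and 45.0% in WT for Tagln, and 77.9% and 58.5% for Cnn1. It was also larger in KO for Rgs5, Pdgfrb and Cspg4. For Smtn (11.6% in KO and 23.8% in WT), Notch3 (11.6% and 17.1%) and Abcc9 (6.73% and 8.51%) it was smaller in KO. For Acta2 and Myh11, KO replicate 7 was the highest heart and KO replicate 5 the lowest. A difference in spread between genotypes was not tested. The 4 contractile genes were grouped after their values were seen. Their sum ran 3.52-fold, from 197 CPM in KO replicate 5 to 694 CPM in KO replicate 7, where Acta2 alone was 463 CPM. With Smtn added, the sum of the 5 smooth muscle members ran from 538 CPM in KO replicate 5 to 1005 CPM in KO replicate 7. The sum of the 5 pericyte genes ran 1.35-fold, from 778 CPM in KO replicate 5 to 1048 CPM in WT replicate 4.

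**Figure D3:**
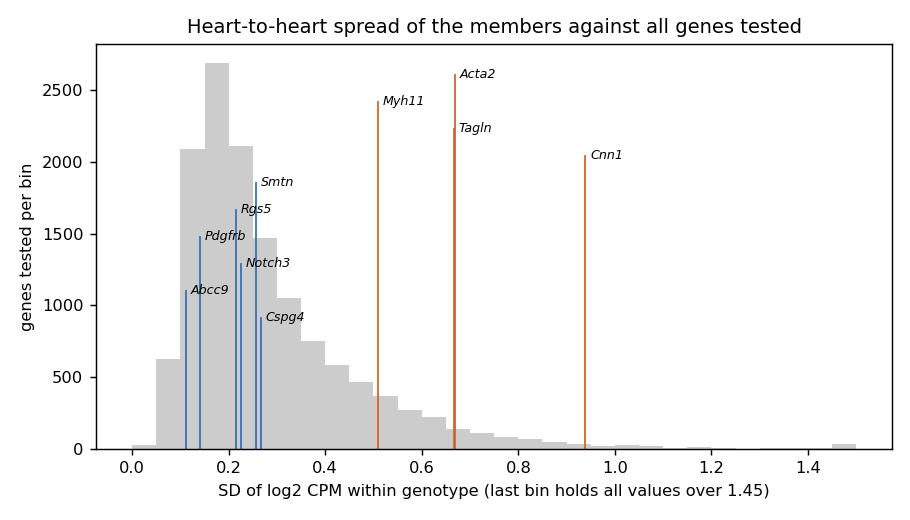
Number of genes tested (y axis, grey bars) by their SD of log2 CPM within genotype (x axis), with the 10 members marked by lines, orange for Acta2, Myh11, Tagln and Cnn1 and blue for the others; line heights only separate the names. The 4 orange genes lie at 0.51 to 0.94, to the right of most genes, and the blue ones at 0.11 to 0.27.

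Relations between members across the 8 hearts were described pair by pair, and none passed the adjusted test. The 4 contractile genes were grouped after their values were seen and Smtn was left out of them, so their values of r against those of other pairs restate that choice. Over the 45 pairs of members, Pearson's r of log2 CPM was from 0.667 to 0.91 for the 6 pairs among these 4 genes and from -0.501 to 0.593 for the other 39 pairs. The closest pair was Tagln and Cnn1 (r = 0.91, exact permutation p = 0.0068; Spearman's rho = 0.762, exact p = 0.037; n = 8), followed by Myh11 and Tagln (r = 0.836, exact permutation p = 0.012; rho = 0.810, exact p = 0.022). Adjusted over the 45 pairs, 0 pairs passed 0.05 (smallest adjusted exact p = 0.278 for r and 0.327 for rho), and 5 pairs had an unadjusted exact p under 0.05. Without the 2 hearts farthest from the median of the first gene, r was 0.802 for Tagln and Cnn1 and 0.724 for Myh11 and Tagln. For Acta2 and Myh11, r went from 0.667 (exact p = 0.069; rho = 0.667, exact p = 0.083) to -0.012 without KO replicates 5 and 7, so that relation rests on those hearts. With genotype means taken out, the 6 values of r ran from 0.671 to 0.911, and without KO replicate 7 from 0.402 to 0.887. The genes of a pair share libraries and their scaling.

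**Figure D4:**
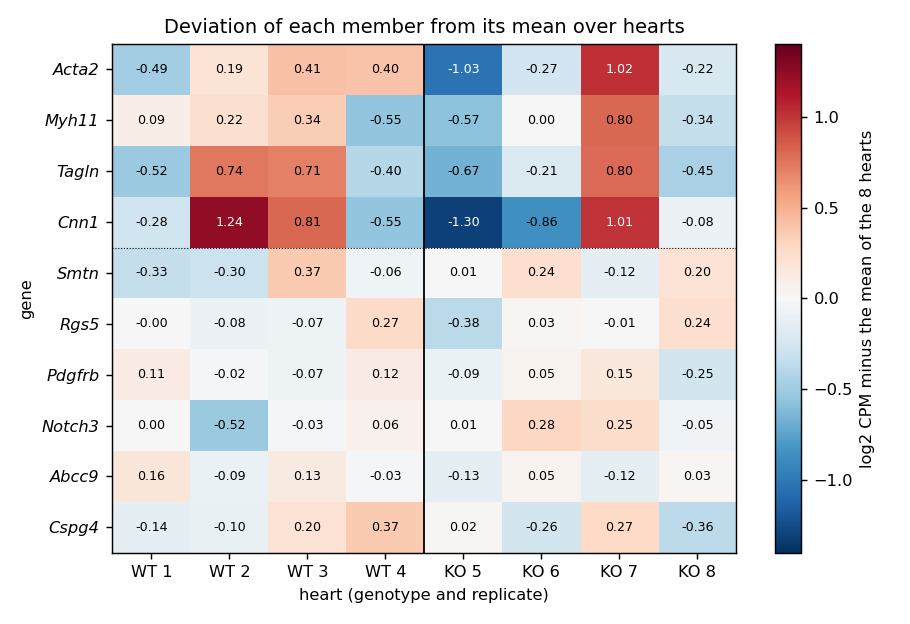
Log2 CPM of each member (rows) in each heart (columns, WT left and KO right of the line) minus the mean of the 8 hearts, in red where higher and blue where lower. The upper 4 rows share hearts that are high (KO replicate 7, with values from 0.80 to 1.02) and low (KO replicate 5, from -1.30 to -0.57).

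Markers of other cell types were read in the same hearts. KO replicate 7, with the highest sum of the 4 contractile genes, also had the highest summed level of the 8 elastic artery wall genes (1324 CPM). KO replicate 5 had the lowest (1048 CPM), where the WT range was 1054 to 1234 CPM. Gene by gene, however, 2 of the 8 were highest in KO replicate 7 and 0 were lowest in KO replicate 5. The 10 endothelial markers summed to 1924 CPM in KO replicate 7 and 1609 CPM in KO replicate 5, within a range of 1574 to 1927 CPM over all hearts. The 10 fibroblast markers summed to 2712 CPM in KO replicate 7 and 2270 CPM in KO replicate 5, where the WT range was 2402 to 3030 CPM. Of the 7 atrial markers 4 were tested, and Bmp10 was at 0 in every heart. The 4 summed to 295 to 506 CPM in WT and 486 to 738 CPM in KO, with KO replicate 7 the highest, and most of that sum was Nppa. Of 6 epicardial and mesothelial markers 2 were tested, Wt1 and Upk3b, and these summed to 11.2 to 22.0 CPM over all hearts. Upk3b alone ran from 0 counts in KO replicate 6 to 55 counts in KO replicate 5, at the 99.7th percentile of spread. The 5 erythroid markers summed to 815 CPM in WT replicate 1 and 2147 CPM in KO replicate 5, the lowest and highest hearts. Of 6 skeletal muscle markers 3 were tested. These summed to 392 CPM in KO replicate 5, the lowest heart, and 993 CPM in KO replicate 7, where the WT range was 506 to 1038 CPM. In KO replicates 5 and 7, nearly all of the sum was Acta1, whose values are given above. The 10 macrophage markers summed to 330 to 513 CPM over all hearts, and the 4 tested of 6 Schwann and neuronal markers to 14.4 to 23.6 CPM. The part of these other cell types in the mural results was not tested.

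The pericyte members varied less between hearts than Acta2, Myh11, Tagln and Cnn1. They did not all vary less than Smtn: the SD of log2 CPM within genotype was 0.266 for Cspg4 and 0.258 for Smtn. Rgs5, a regulator of G-protein signalling and one of the most used pericyte markers, lies on chromosome 1 (169655501 to 169695813, plus strand). It stood at 531, 502, 508 and 642 CPM in WT replicates 1 to 4 and at 409.9, 545, 531 and 628 CPM in KO replicates 5 to 8. Only KO replicate 5 was below 500 CPM. On average it reached 546 ± 65.2 CPM in the WT hearts and 528 ± 89.7 CPM in the KO hearts (SD over 4 hearts), a log2 difference of -0.05 ± 0.14 (SE; adjusted p = 0.969 in edgeR). The interval of its fold change ran from 0.781 to 1.20. The value was 0.06 without KO replicate 5.

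Pdgfrb, the receptor through which PDGF-B recruits mural cells, lies on chromosome 18 (61045150 to 61085061, plus strand). It stood at 104, 94.6, 91.6 and 104 CPM in WT replicates 1 to 4 and at 90.1, 99.6, 106 and 80.5 CPM in KO replicates 5 to 8. All hearts lay within 1.32-fold of each other. WT hearts averaged 98.5 ± 6.35 CPM and KO hearts 94.2 ± 11.3 CPM (SD, 4 hearts per genotype); the log2 fold change was -0.06 with an SE of 0.11 (adjusted p = 0.936, edgeR), and the interval of the fold change ran from 0.807 to 1.13. Without KO replicate 8 the value was 0.0034.

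Notch3, the Notch receptor of vascular mural cells, lies on chromosome 17 (32120820 to 32166852, minus strand). It stood at 55.6, 38.6, 54.5 and 58.0 CPM in WT replicates 1 to 4 and at 55.8, 67.7, 65.9 and 53.6 CPM in KO replicates 5 to 8. WT replicate 2 was the lowest heart and 2 of the KO hearts were the highest, but the other 5 lay together between 53.6 and 58.0 CPM. It had the smallest p of the members (unadjusted p = 0.116, adjusted p = 0.797 in edgeR), with a WT mean of 51.7 ± 8.82 CPM, a KO mean of 60.8 ± 7.07 CPM (SD, 4 hearts per genotype) and a log2 difference of 0.23 ± 0.14 (SE). Without WT replicate 2 the value was 0.12.

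Abcc9 encodes SUR2, the regulatory subunit of ATP-sensitive potassium channels, on chromosome 6 (142587862 to 142702315, minus strand). It stood at 242, 202, 236 and 212 CPM in WT replicates 1 to 4 and at 197, 223, 198 and 221 CPM in KO replicates 5 to 8. It had the smallest spread of the members, with an SD of log2 CPM within genotype of 0.11, at the 7.42th percentile of all genes tested. On average it reached 223 ± 19.0 CPM in the WT hearts and 209.9 ± 14.1 CPM in the KO hearts (SD over 4 hearts), a log2 difference of -0.09 ± 0.11 (SE; adjusted p = 0.903 in edgeR). Counts per gene do not separate its heart muscle and vascular splice forms.

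Cspg4, which encodes the proteoglycan NG2 of pericyte surfaces, lies on chromosome 9 (56865033 to 56899870, plus strand). It stood at 22.5, 23.1, 28.6 and 32.0 CPM in WT replicates 1 to 4 and at 25.1, 20.7, 30.0 and 19.3 CPM in KO replicates 5 to 8. The ranges overlapped, with the highest value in a WT heart and the 2 lowest in KO hearts. WT hearts averaged 26.6 ± 4.56 CPM and KO hearts 23.8 ± 4.86 CPM (SD, 4 hearts per genotype); the log2 fold change was -0.16 with an SE of 0.16 (adjusted p = 0.881, edgeR). Without KO replicate 7 the value was -0.29, and without WT replicate 4 it was -0.06.

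Genes around the members were read from lists, and none passed. Among 20 other contractile genes of smooth muscle, 0 passed over all genes tested. An unadjusted p under 0.05 in edgeR was held by 2, against 6.40% of all genes tested. Log2 fold changes were positive for 8 and negative for 12, with a median of -0.09. Myl9, the regulatory light chain of smooth muscle myosin, stood at 71.5, 78.4 and 93.1 CPM in WT replicates 2 and 3 and KO replicate 7, against 33.5 to 47.1 CPM in the other 5 hearts. Actg2, the actin of visceral smooth muscle, ran from 0.420 CPM in KO replicate 5 to 4.08 CPM in KO replicate 7. Both were named after their values were seen, as the list's genes above the 90th percentile of spread (94.4th and 98.6th). Myl6, a myosin light chain of smooth muscle and other tissues, had a log2 fold change of -0.32 ± 0.14 (SE, adjusted p = 0.772 in edgeR). The most abundant genes of the list per kilobase, Tpm1 (0.04 ± 0.15) and Des (0.02 ± 0.17), which heart muscle also expresses, had log2 fold changes near 0.

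Among 20 other pericyte genes, 0 passed and 3 had an unadjusted p under 0.05 in edgeR, against 6.40% of all genes tested. Log2 fold changes were positive for 5 and negative for 15, with a median of -0.07. Tbx18, a transcription factor of pericytes and vascular smooth muscle, was at 5.91 to 9.31 CPM in WT and at 4.08 to 5.18 CPM in KO. These ranges did not overlap, as for 4.12% of all genes tested. The log2 fold change of Tbx18 was -0.68 ± 0.20 (SE, adjusted p = 0.711 in edgeR), and it was picked from the list by its small p. The most abundant genes of the list per kilobase were Art3, an ADP-ribosyltransferase family gene, at -0.06 ± 0.17, and Mcam, an adhesion molecule also called CD146, at -0.13 ± 0.14.

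Of the 9 regulators of the contractile program, 0 passed and 0 had an unadjusted p under 0.05 in edgeR (median log2 fold change 0.20, 8 positive and 1 negative). Srf itself stood at -0.15 ± 0.13, its actin-sensing coactivator Mrtfa at 0.25 ± 0.15, its partner Elk1 at 0.33 ± 0.18 and Klf4, a repressor of contractile genes, at 0.08 ± 0.12 (log2 fold change ± SE; adjusted p from 0.783 to 0.922). Of 14 genes of the TGF-beta pathway, which also drives contractile genes, 0 passed (median 0.04). An unadjusted p under 0.05 in edgeR was found for 6.40% of all genes tested, and for 2 of these 14. Those 2 were the inhibitory Smads, Smad6 at 0.40 ± 0.14 and Smad7 at 0.28 ± 0.12 (SE, adjusted p of 0.725 and 0.772 in edgeR). Smad6 was at 9.95 to 12.1 CPM in WT and 12.8 to 16.8 CPM in KO, with no overlap, as for 4.12% of all genes tested. Like Tbx18, it was picked from its list by its small p. The coreceptor gene Eng stood at 0.08 ± 0.12 (log2 fold change ± SE).

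Signals that reach mural cells from the endothelium showed no difference that passed. Of 16 other Notch pathway genes, 0 passed and 3 had an unadjusted p under 0.05 in edgeR, against 6.40% of all genes tested. Their median log2 fold change was 0.06, with 9 positive and 7 negative. The ligand gene Jag2 stood at 0.31 ± 0.12 and the receptor gene Notch2 at 0.44 ± 0.17 (SE, adjusted p = 0.734 for both), the ligand gene Dll4 at 0.10 ± 0.12 and the target gene Hes1 at -0.25 ± 0.22. Of 5 PDGF genes 0 passed, and 0 had an unadjusted p under 0.05 (median -0.05). Pdgfb, which encodes the ligand of Pdgfrb, was at 96.2 ± 13.6 CPM in the WT hearts and 104 ± 12.2 CPM in the KO hearts (SD over 4 hearts; log2 difference 0.11 ± 0.13 SE). Pdgfa stood at -0.06 ± 0.14 and Pdgfc at 0.28 ± 0.34.

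The partners and relatives of Abcc9 and Rgs5 were compared last. Of the 3 other subunits of ATP-sensitive potassium channels, 0 passed. An unadjusted p under 0.05 in edgeR was found for 6.40% of all genes tested, and for 1 of these 3. That gene was Kcnj11, the pore subunit of heart muscle, at 6.65 ± 1.86 CPM in the WT hearts and 10.7 ± 1.98 CPM in the KO hearts (SD over 4 hearts; log2 difference 0.68 ± 0.22 SE, adjusted p = 0.711 in edgeR). Kcnj8, the vascular pore subunit, stood at -0.01 ± 0.11 and Abcc8, which encodes SUR1, at 0.15 ± 0.15. Of 15 other RGS genes, 12 were tested, 0 passed and 1 had an unadjusted p under 0.05 (median 0.10). Rgs16 stood at -1.15 ± 0.39, from 1.69 to 6.14 CPM in WT and 1.12 to 2.51 CPM in KO (SE, adjusted p = 0.711), and Rgs7 at 0.80 ± 0.47, while the most abundant per kilobase, Rgs4 and Rgs10, stood at 0.07 ± 0.15 and -0.18 ± 0.16. Of the 8 elastic artery wall genes, 0 passed and 0 had an unadjusted p under 0.05 (median -0.10): Bgn, the proteoglycan biglycan, stood at 0.29 ± 0.14, elastin (Eln) at 0.18 ± 0.16, Mgp at -0.20 ± 0.21 and Ltbp4 at 0.05 ± 0.12 (log2 fold change ± SE).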

How the data were processed

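The RNA libraries were TruSeq stranded and poly(A)-selected according to the labels' protocols. STAR 2.7.1a and GRCm38 (mm10) are named in the submitters' processing notes for the alignment; for the counting tool and strand setting, the sources used here give nothing. Raw whole-number counts per Ensembl gene, not normalized, were deposited by the authors, 1 column per heart, and columns were matched to samples by title. Symbols, positions and exon lengths came from GENCODE M21. No library repeats another: for every pair, the chi-square of the counts was at least 10.8 per degree of freedom.

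The filter was filterByExpr (minimum count 10) and the scaling TMM; the test was the two-sided quasi-likelihood F-test of edgeR 4.0.16 under R 4.3.3, genotype as the only term. Adjustment was by Benjamini-Hochberg over the 13336 genes tested, threshold 0.05; SE is the log2 fold change over the root of F. The edgeR step was tested on simulated data. Log2 CPM used a prior count of 2. Pair relations used exact two-sided permutation tests over 40320 orderings. Named genes were all members and, per list, those passing, the 2 with the smallest p and the 2 with the highest CPM per kilobase; for Myh11 and Rgs5 also the 5 genes with the most similar pattern; some of these are not reported here. Members and lists were chosen with earlier results of these data known. Alternatives used DESeq2 1.42.0, limma 3.58.1 and sva 3.50.0.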

Additional observations from a re-analysis of the deposited data

How the results depend on the processing

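Across the 16 alternatives (DESeq2 size factors, library totals, DESeq2, limma-voom, testing unfiltered genes, requiring 1 CPM in 4 libraries, no mitochondrially encoded genes, 1 surrogate variable and each of the 8 hearts left out), 0 members passed in any. No paired analysis was possible because the labels give no factor that pairs WT with KO hearts. Genes higher and lower in KO numbered 2 and 1 in the main test, 8 and 3 with DESeq2, 6 and 4 without a filter, and 6 and 1 with 1 surrogate variable; with 1 heart left out they ran from 2 to 5 higher and from 0 to 3 lower. The median of the members was -0.08, 0.06 with 1 surrogate variable, and from -0.21 (without KO replicate 7) to 0.01 (without KO replicate 5) with 1 heart left out. Log2 fold changes that turned sign were as follows, and the cause was not tested. With library totals, Myh11 was -0.042, Tpm1 -0.0054, Des -0.023 and Ltbp4 -0.0003. With limma-voom, Myh11 was -0.055. With 1 surrogate variable, which was largest in WT replicate 2, Acta2 was 0.0499, Tagln 0.10, Cnn1 0.0704, Art3 0.16 and Mgp 0.14. With 1 heart left out, Acta2 ran from -0.63 to 0.14, Myh11 from -0.35 to 0.17, Rgs5 from -0.14 to 0.057 and Pdgfrb from -0.13 to 0.0034; Tpm1 ran from -0.053 to 0.14, Des from -0.11 to 0.13, Art3 from -0.21 to 0.11, Pdgfa from -0.14 to 0.052 and Kcnj8 from -0.062 to 0.064. Under the same removals Rgs4 ran from -0.047 to 0.19, Mgp from -0.33 to 0.046 and Ltbp4 from -0.0071 to 0.11. The lowest depth behind a member was that of Cnn1, with 18 counts in KO replicate 5.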

Other observations

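Of all genes tested, 9.70% were highest in KO replicate 7, 13.2% were lowest in KO replicate 5 and 1.54% were both, and these hearts were picked from the members' values. Among the members, 3 of 10 were both (Acta2, Myh11 and Tagln), and among the 20 other contractile genes 2 were (Myl9 and Actg2). So were 2 of 16 Notch pathway genes (Notch1 and Hey2), 1 of 9 regulators of the contractile program (Klf4), 1 of 14 TGF-beta pathway genes (Tgfb3) and 1 of 10 endothelial markers (Pecam1), shares of 12.5%, 11.1%, 7.14% and 10%, beside 10% for the contractile list. Of the 20 other pericyte genes 0 were, as in the other lists.

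The ratio of Acta2 to Myh11 was not constant between hearts. On the scale of CPM per kilobase it was 7.23 in WT replicate 1 and 20.9 in WT replicate 4, and from 7.91 to 12.6 in the other 6 hearts. WT replicate 4 combined the second highest WT level of Acta2 (301 CPM) with the lowest WT level of Myh11 (49.9 CPM).

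By Pearson's r of log2 CPM over the 8 hearts, the genes most like Myh11 were Gstt3 (r = 0.976), Birc3 (0.958), Bmp5 (0.954), Tmem19 (0.944) and Susd5 (0.938). Those most like Rgs5 were Dnaaf5 (0.971), Tspan31 (0.951), the pseudogene Gm14148 (0.943), 2810006K23Rik (0.931) and Aar2 (0.924). They are the highest of all genes tested and carry no p; 0.847% of genes had an r over 0.8 with Myh11 and 0.660% with Rgs5. No other member was among either 5.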
